A study of Homo sapiens with 28 samples.

Results

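Kelly cells are an established human neuroblastoma line with an amplified MYCN gene. The comparison described here pools the 4 microRNA mimics that changed many genes in these cells and sets them against the 3 transfections that changed few. It uses all 28 libraries of the series. Of these, 16 came from cells given a mimic of miR-485-3p, miR-99b-5p, miR-100-3p or miR-380-3p, and 12 came from cells given a mimic of miR-1915-3p, a mimic of miR-1283 or a non-targeting scrambled control, with 4 libraries in each of the 7 groups. Every mimic weighs the same within its pool. The labels name the oligonucleotides as Dharmacon mimics used at 25 nM with the lipid reagent DharmaFECT 1. Transfection took place at seeding, and total RNA was taken after 48 h for stranded mRNA libraries. Every library therefore came from transfected cells, the controls included. Nothing in the labels tells whether replicates were grown as separate cultures, and the p-values given here measure only the spread between these libraries. Replicates 1 and 4 of miR-1915-3p carry a suffix in their titles that is not explained.

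The members of the pools were chosen by an outcome measured in the same libraries, the number of genes called against the scrambled control at a Benjamini-Hochberg adjusted p under 0.05. That number was 3176 for miR-485-3p, 2498 for miR-99b-5p, 1634 for miR-380-3p and 897 for miR-100-3p, against 37 for miR-1915-3p and 3 for miR-1283. The mimic just inside the choice was thus miR-100-3p and the one just outside was miR-1915-3p. Differences between the pools are for that reason a description, given as log2 changes with standard errors. Differences among the 4 mimics compare no comparison library and are given as tests for single genes. How many genes differ among them is a description, since mimics with many changes were chosen.

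A microRNA guides Argonaute proteins to messenger RNAs, mainly through pairing of its seed, a short stretch near the 5′ end, with sites in 3′ UTRs, and the bound messengers are translated less and decay faster. A mimic is a synthetic duplex that loads a cell with a single microRNA. Kelly cells belong to the sympathetic lineage, whose adrenergic program makes catecholamines with the enzymes TH, DDC and DBH and stores them in vesicles packed with chromogranins.

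The mature sequences are shown because the pooled mimics have no seed in common. They are RefSeq sequences on GRCh38.p14, written 5′ to 3′ with the seed (positions 2 to 8) in capitals; the labels give the names of the mimics and not the bases of the reagents.
miR-99b-5p: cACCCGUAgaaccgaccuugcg
miR-380-3p: uAUGUAAUaugguccacaucuu
miR-485-3p: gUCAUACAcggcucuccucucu
miR-100-3p: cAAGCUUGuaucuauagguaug
miR-1915-3p: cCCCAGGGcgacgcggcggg
miR-1283: uCUACAAAggaaagcgcuuucu
No 2 of these 6 seeds are the same. The genes of miR-380-3p and miR-485-3p both lie on chromosome 14, those of miR-99b-5p and miR-1283 on chromosome 19, that of miR-100-3p on chromosome 11 and that of miR-1915-3p on chromosome 10. The heptamers complementary to the seeds, written as DNA on the transcript strand, were TACGGGT for miR-99b-5p, ATTACAT for miR-380-3p, TGTATGA for miR-485-3p, CAAGCTT for miR-100-3p, CCCTGGG for miR-1915-3p and TTTGTAG for miR-1283.

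Library totals ran from 10.99 to 21.12 M expected counts in the 16 mimic libraries and from 12.33 to 23.3 M in the 12 comparison libraries. All 10 neuroblastoma markers were present in the table, among them HAND2, GATA3 and MYCN, with summed levels of 7737 to 13550 CPM against 10220 to 13670 CPM. CPM are counts scaled to a common effective library size. The 3 of 6 leukocyte and 2 of 3 hepatocyte markers in the table summed to at most 0.377 CPM in any library, endothelial markers to between 0.885 and 5.21 CPM against 2.13 to 3.30 CPM, and Schwann cell markers to between 1.24 and 4.06 CPM against 1.59 to 3.15 CPM. Fibroblast markers summed to between 57.7 and 93.8 CPM against 64.2 to 87.6 CPM, and epithelial markers to between 32.6 and 66.2 CPM against 39.1 to 59.1 CPM. Over the 7 group means, the pools did not differ beyond their spread in total counts, in the share of counts from the 13 mitochondrially encoded mRNAs (8.42% ± 1.09 in the 4 mimics and 7.79% ± 0.39 in the 3 comparison groups, SD) or in the GC slope, which is the log2 change of a library per 10 percentage points of transcript GC content. The exact two-sided permutation p values were 0.4857, 0.4857 and 0.4571, and the smallest that 35 arrangements can give is 0.02857. Single mimic libraries spread more widely than comparison libraries, with mitochondrial shares of 5.39% to 11.97% against 6.73% to 8.56%.

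**Figure D1:**
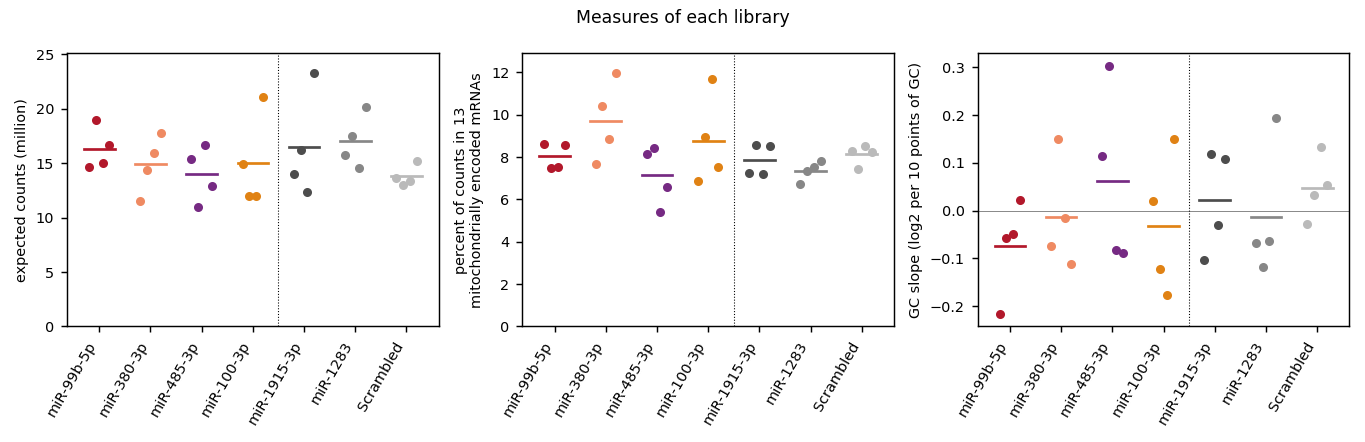
Total expected counts (M), percent of counts in the 13 mitochondrially encoded mRNAs and GC slope (log2 per 10 percentage points of GC) of each of the 28 libraries. Points are libraries, bars are group means, and the dotted line parts the 4 mimic groups on the left from the 3 comparison groups on the right; the ranges overlap in all 3 measures, and the 3 highest mitochondrial shares are those of libraries of miR-380-3p and miR-100-3p.

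Of 15058 genes tested, 1400 were called higher in the 4-mimic pool (9.3%) and 1308 were called lower (8.69%). Most of these changes were small, with a median absolute log2 change of 0.21 among the higher genes and 0.26 among the lower genes. An absolute log2 change of at least 0.5 was reached by 76 higher and 181 lower genes, and a value of at least 1 by 8 higher and 10 lower genes. Of the 18 genes that reached 1, only TMEM30A, which was lower, had a mean log2 CPM of at least 2, so the largest changes were mostly those of genes of low level. With the group mean of each mimic as the unit, 4 mimics against 3 comparison groups, limma called no gene higher (0%) and no gene lower (0%). The smallest adjusted p there was 0.563, and 764 genes had an unadjusted p under 0.05. The 2 analyses ask different things, since the fit over libraries takes no account of how far the mimics differ from one another.

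The edgeR F test among the 4 mimics called 7842 of 15058 genes (52.1%). The same test among the 3 comparison groups called 41 (0.272%), a low count that the choice of groups with few changes fixes, so nothing is read from the gap between these counts. Among genes called in the pooled contrast, 962 of the 1400 higher genes (68.7%) and 1059 of the 1308 lower genes (81.0%) also differed among the 4 mimics, which leaves 438 and 249 for which no difference was called. A single mimic gave more than 50% of the change summed over the 4 mimics for 586 higher genes (41.9%) and 876 lower genes (67.0%). The mimic with the largest change gave a median of 47.1% of the sum among higher genes and 60% among lower genes, where an even split would be 25%. That mimic was miR-485-3p for 1009 genes of either direction, miR-99b-5p for 740, miR-380-3p for 609 and miR-100-3p for 350.

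**Figure D2:**
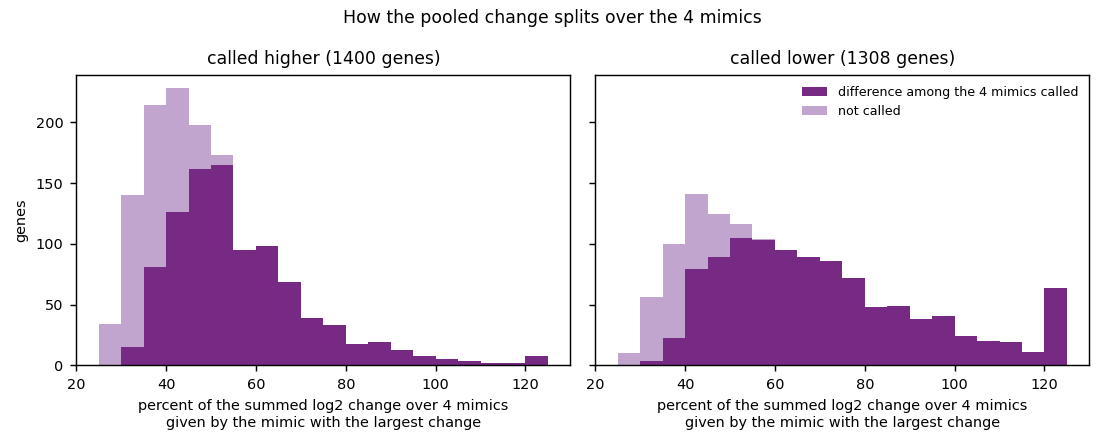
Percent of the log2 change summed over the 4 mimics that came from the mimic with the largest change (horizontal axis) and number of genes (vertical axis), for the 1400 genes called higher and the 1308 called lower. Dark bars are genes that also differed among the 4 mimics and pale bars are the rest; the last bar collects all larger values, which arise where mimics moved a gene in opposite directions, and the lower genes sit further right (median 60%) than the higher genes (median 47.1%).

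In 13 genes the 16 mimic libraries lay entirely on 1 side of the 12 comparison libraries: 8 genes were above in every library (0.0531% of those tested) and 5 were below (0.0332%). All 13 were called in the pooled contrast. The F test called a difference among the 4 mimics in 7 of them and not in the other 6.

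The lower genes of this kind included 3 of the catecholamine pathway. DDC (ENSG00000132437, chr7:50458436-50565457 on GRCh38), which turns L-DOPA into dopamine, had 200 to 341 CPM in the mimic libraries with a median of 278 CPM, against 349 to 435 CPM with a median of 383 CPM in the comparison libraries. The pools were separated by a narrow gap, and the levels of miR-99b-5p and miR-380-3p were the lowest on average. Its pooled log2 change was -0.56 ± 0.04, made up of -0.80 under miR-99b-5p, -0.78 under miR-380-3p, -0.39 under miR-485-3p and -0.26 under miR-100-3p, and the 4 mimics differed (edgeR F test, adjusted p = 3.85e-06).

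DBH (ENSG00000123454, chr9:133635348-133659344), which turns dopamine into noradrenaline, had 868 to 1367 CPM with a median of 1122 CPM in the mimic libraries, against 1427 to 1853 CPM with a median of 1581 CPM in the comparison libraries. All 4 mimics were below all 3 comparison groups by a similar amount. Pooled, DBH changed by -0.52 ± 0.07 on the log2 scale, with -0.64 under miR-99b-5p, -0.53 under miR-380-3p, -0.50 under miR-485-3p and -0.40 under miR-100-3p. No difference among the 4 mimics was called for DBH (edgeR F test, adjusted p = 0.414), and it had the smallest adjusted p of all genes in the comparison of group means.

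CHGA (ENSG00000100604, chr14:92923080-92935293) encodes chromogranin A, the core protein of the dense vesicles that store catecholamines. Its level was 1493 to 2970 CPM with a median of 2373 CPM in the mimic libraries, against 3013 to 4123 CPM with a median of 3482 CPM in the comparison libraries. The levels of miR-485-3p were the lowest on average, and the highest mimic library lay just below the lowest comparison library. Pooled, CHGA changed by -0.60 ± 0.06 on the log2 scale, with -0.42 under miR-99b-5p, -0.62 under miR-380-3p, -0.92 under miR-485-3p and -0.46 under miR-100-3p (edgeR F test among the 4, adjusted p = 0.00255). In bulk RNA, less RNA per cell and fewer cells that express a gene cannot be told apart. The per-mimic changes of every gene given here share the same 12 comparison libraries.

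The largest change among the 13 belonged to TMEM30A (ENSG00000112697, chr6:75252924-75284968, minus strand), the subunit that phospholipid flippases need to leave the endoplasmic reticulum. It had 18.3 to 52.6 CPM with a median of 25.3 CPM in the mimic libraries, against 65.3 to 106.7 CPM with a median of 84.2 CPM in the comparison libraries. The 4 libraries of miR-100-3p, at 45.4 to 52.6 CPM, lay between the other 3 mimics and the comparison libraries. The pooled log2 change was -1.55 ± 0.08, with -1.82 under miR-99b-5p, -1.88 under miR-380-3p, -1.69 under miR-485-3p and -0.81 under miR-100-3p (edgeR F test among the 4, adjusted p = 1.93e-06).

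TMEM30A stood out from the catecholamine genes in its 3′ UTR, which holds heptamers of 3 of the 4 mimics. They are shown with their flanks, the heptamer in capitals and its GRCh38 position beside it, all in the 3′ UTR exon on the minus strand.
TMEM30A, miR-485-3p heptamer at chr6:75255698-75255704: gaaagggattacaagaTGTATGAg
TMEM30A, miR-485-3p heptamer at chr6:75253178-75253184: attgccttagaattatTGTATGAc
TMEM30A, miR-100-3p heptamer at chr6:75255536-75255542: cagtacagttatttgtCAAGCTTa
TMEM30A, miR-380-3p heptamer at chr6:75254758-75254764: aatcagaggtggcttaATTACATt
The UTR held no heptamer of miR-99b-5p, under which the gene stood at 24.2 ± 1.90 CPM, beside 23.3 ± 5.55 CPM under miR-380-3p and 26.4 ± 7.88 CPM under miR-485-3p (SD, n = 4 each). It held none of miR-1915-3p or miR-1283 either. Of the 12664 tested genes with a 3′ UTR, 167 held heptamers of exactly 3 of the 4 mimics and 5 held heptamers of all 4. The UTRs of DDC and DBH held none of the 6 heptamers, and that of CHGA held only the heptamer of miR-1915-3p. The UTRs of DDC, DBH and CHGA are shorter, at 966, 897 and 576 bases against 3178 bases for TMEM30A. No match means only that these letters were absent from the longest annotated UTR.

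The fifth separated lower gene was CH17-164J11.1 (ENSG00000273825, chr1:144754572-144786606), which GENCODE types as an unprocessed pseudogene. It had 9.22 to 22.9 CPM in the mimic libraries, against 26.7 to 35.7 CPM in the comparison libraries, and its lowest levels were those of miR-99b-5p (10.2 ± 0.86 CPM, SD, n = 4). Its pooled log2 change was -0.86 ± 0.05, and the 4 mimics differed (edgeR F test, adjusted p = 6.57e-09). Reads of a pseudogene can be shared with near-identical copies, so its counts are uncertain.

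The 8 genes that were higher in every mimic library included NEFM and SEPT3, which encode proteins of neurons. NEFM (ENSG00000104722, on chromosome 8), the medium neurofilament subunit of the axonal skeleton, had 145 to 210 CPM with a median of 182 CPM in the mimic libraries, against 91.8 to 137 CPM with a median of 123 CPM in the comparison libraries. The miR-1915-3p libraries were the lowest, at 102 ± 11.4 CPM against 125.1 ± 5.88 CPM in the scrambled control (SD, n = 4 each). The pooled log2 change of NEFM was 0.60 ± 0.04, with 0.67 under miR-99b-5p, 0.74 under miR-380-3p, 0.51 under miR-485-3p and 0.49 under miR-100-3p (edgeR F test among the 4, adjusted p = 0.0269).

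SEPT3 (now SEPTIN3, ENSG00000100167, chr22:41969475-41998221), a septin of presynaptic terminals, was the separated gene with the highest adjusted p among the 4 mimics. It had 276 to 320 CPM with a median of 297 CPM, against 225 to 258 CPM with a median of 247 CPM. Its pooled log2 change was 0.29 ± 0.03, and the single mimics gave values between 0.28 and 0.30 (edgeR F test among the 4, adjusted p = 0.983). The change was small and nearly the same under each mimic, and the pools did not overlap.

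CD200 (ENSG00000091972, chr3:112332347-112362812), a membrane ligand that restrains myeloid cells, had 15.5 to 22.1 CPM with a median of 18.2 CPM in the mimic libraries, against 9.73 to 14.4 CPM with a median of 11.8 CPM in the comparison libraries. The level of miR-380-3p was the highest on average, and the scrambled control held both the highest and the lowest of the comparison libraries. CD200 had a pooled log2 change of 0.62 ± 0.06, with 0.57 under miR-99b-5p, 0.78 under miR-380-3p, 0.63 under miR-485-3p and 0.52 under miR-100-3p (edgeR F test among the 4, adjusted p = 0.118).

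PTGFRN (ENSG00000134247, chr1:116910057-116990358), a membrane protein that associates with tetraspanins, had 99.2 to 139 CPM with a median of 115 CPM, against 70.3 to 97.5 CPM with a median of 88.8 CPM. The comparison groups were not alike here, with 74.2 ± 2.80 CPM under miR-1915-3p, 96.2 ± 1.02 CPM under miR-1283 and 88.5 ± 2.72 CPM in the scrambled control (SD, n = 4 each). The pooled log2 change was 0.42 ± 0.03, largest under miR-485-3p (0.62) and smallest under miR-99b-5p (0.26), and the mimics differed (edgeR F test, adjusted p = 1.68e-05).

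The other 4 separated higher genes changed by less than 0.5 on the log2 scale. TBC1D30, a GTPase-activating protein for RAB GTPases, had a pooled log2 change of 0.46 ± 0.05, largest under miR-380-3p at 0.70 (edgeR F test among the 4, adjusted p = 0.00145). ISG20L2, an exonuclease of ribosomal RNA processing, changed by 0.27 ± 0.03, LRCH1, a regulator of the CDC42 pathway, by 0.27 ± 0.04, and STK24, a kinase of the sterile 20 family, by 0.20 ± 0.04. No difference among the 4 mimics was called for ISG20L2, LRCH1 or STK24 by the edgeR F test, with adjusted p values of 0.0922, 0.832 and 0.728. STK24 was no longer called in the pooled contrast when the scrambled control alone was the comparison, where its log2 change was 0.20.

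**Figure D3:**
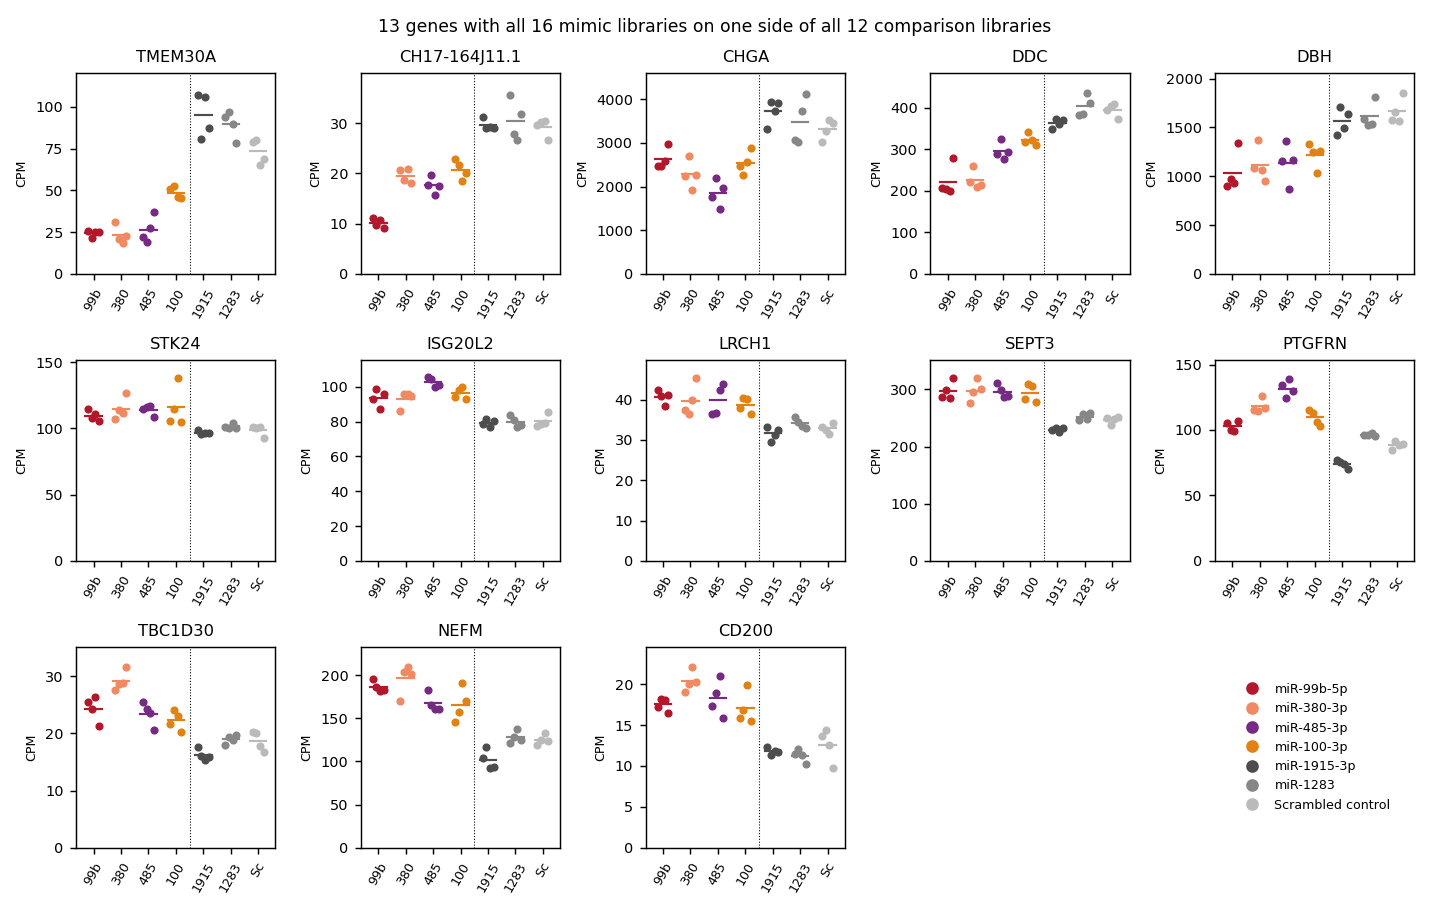
CPM in each of the 28 libraries (vertical axes, from 0) for the 13 genes in which all 16 mimic libraries lay on 1 side of all 12 comparison libraries, by group on the horizontal axes (mimics are marked by the number in their name and Sc is the scrambled control). Points are libraries and bars group means; DBH, SEPT3 and LRCH1 sit at similar levels under the 4 mimics, whereas TMEM30A and DDC are closer to the comparison groups under miR-100-3p.

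A pair of further genes had among the smallest p values over group means without full separation of the libraries. RNF24, a RING finger protein of the Golgi, had 30.9 to 42.6 CPM in the mimic libraries, against 24.1 to 32.7 CPM, with log2 changes of 0.39 to 0.46 under the single mimics (edgeR F test among the 4, adjusted p = 0.864). CARD9, an adaptor of innate immune signalling, had 26.1 to 52.8 CPM in the mimic libraries, against 38.5 to 67.5 CPM, with log2 changes between -0.60 and -0.49 (edgeR F test among the 4, adjusted p = 0.963). The ranges of both genes overlapped between the pools, and CARD9 was no longer called when the scrambled control alone was the comparison, where its log2 change was -0.53.

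MYCN itself (ENSG00000134323, chr2:15940564-15947007), the driver oncogene of the line, was not called in the pooled contrast. Its level was 3234 to 6925 CPM with a median of 4242 CPM in the mimic libraries, against 3645 to 5490 CPM with a median of 4663 CPM in the comparison libraries. The pooled log2 change of -0.03 ± 0.04 averaged -0.40 under miR-99b-5p, -0.16 under miR-380-3p, -0.05 under miR-485-3p and 0.50 under miR-100-3p, which differed (edgeR F test, adjusted p = 6.83e-09). Without miR-100-3p the pooled value was -0.20 and MYCN was called lower (edgeR, adjusted p = 0.00312).

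Beyond DDC, DBH and CHGA, the adrenergic identity list of 28 genes had 11 members called lower (39.3%) and 2 called higher (7.1%), beside 8.69% and 9.3% of all genes tested, and its median log2 change was -0.14 beside -0.005 over all genes. Among the enzymes, TH, the rate-limiting tyrosine hydroxylase, was lower by -0.53 ± 0.16. The vesicular monoamine transporter SLC18A1 had 19.3 to 53.9 CPM with a median of 34.3 CPM in the mimic libraries, against 45.3 to 70.9 CPM with a median of 62.9 CPM, a log2 change of -0.84 ± 0.09. Its libraries overlapped between the pools, and its per-mimic changes ran in the order -1.33 under miR-99b-5p, -1.04 under miR-380-3p, -0.62 under miR-485-3p and -0.36 under miR-100-3p (edgeR F test, adjusted p = 0.000137).

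Other lower members of this list were less even across mimics. SLC18A2, the second monoamine transporter, was at -0.92 under miR-380-3p and -0.51 under miR-100-3p but at 0.14 under miR-99b-5p and 0.07 under miR-485-3p. CYB561, the vesicle cytochrome that supplies DBH with electrons, was at -0.96 under miR-380-3p and at 0.42 under miR-99b-5p. RET, the GDNF receptor kinase, was lowest under miR-100-3p (-0.70), and DLK1, a Notch ligand of chromaffin precursors, was lowest under miR-380-3p (-0.94). The members called higher were ISL1, a transcription factor (0.19 ± 0.06), and CHGB, chromogranin B (0.14 ± 0.04). Of the 13 called members, 11 differed among the 4 mimics, the exceptions being DBH and TH. Over all 2708 called genes, 2021 differed among the 4 (74.6%). With the scrambled control alone as the comparison, 7 members were called lower and 0 higher, beside 251 and 158 over all genes. List counts under other fits are to be set beside the counts over all genes in the same fit.

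The neuronal differentiation list moved the other way, with 12 of 32 tested members called higher (37.5%) and 2 called lower (6.2%), and a median log2 change of 0.09. Apart from NEFM, the cytoskeletal members called higher were the light neurofilament NEFL (0.39 ± 0.03), the axonal protein tau, MAPT (0.31 ± 0.04), internexin, INA (0.18 ± 0.04), doublecortin, DCX (0.58 ± 0.09), and the stathmins STMN2 (0.34 ± 0.06) and STMN4 (0.25 ± 0.06). NEFL had 70.4 to 129 CPM in the mimic libraries, against 63.9 to 75.3 CPM, and the libraries of miR-485-3p overlapped those of the comparison groups. MAPT had 34.9 to 59.0 CPM against 33.9 to 40.9 CPM and all libraries of miR-99b-5p and miR-380-3p lay above all comparison libraries, while those of the other mimics overlapped them. Outside the cytoskeleton, CNTN1, an axonal adhesion protein, was higher under every mimic (0.45 ± 0.06).

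The mimics disagreed on most of these genes, as they did on most genes called in the pooled contrast. DCX was at 1.72 under miR-99b-5p and 0.71 under miR-380-3p, but at -0.47 under miR-485-3p. STMN2 was at 1.25 under miR-380-3p and at -0.21 under miR-485-3p. SCG2, a secretogranin of dense vesicles, was at 1.19 under miR-99b-5p and at -0.68 under miR-485-3p, and GAP43, a growth cone protein, was at -0.38 under miR-485-3p and above 0 under the other 3 mimics. The members with no called difference among the 4 were SYT1, the calcium sensor of vesicle release (0.23 ± 0.05), and PCLO, a presynaptic scaffold (0.38 ± 0.10). ELAVL2, a neuronal RNA-binding protein, was called lower through miR-485-3p, at -1.60 there. Of the 14 called members 12 differed among the 4, beside 2021 of all 2708 called genes (74.6%). Without the comparison group miR-1915-3p the list had 8 higher and 1 lower, beside 698 and 708 over all genes. With the scrambled control alone as the comparison 6 members were called higher and 0 lower, beside 158 and 251 over all genes.

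Genes of axon guidance and of cell adhesion were also higher more often than lower. The axon guidance list had 14 of 36 tested members called higher (38.9%) and 4 lower (11.1%). Among ligands, SLIT2 had 10.9 to 32.8 CPM with a median of 22.7 CPM in the mimic libraries, against 9.97 to 14.6 CPM with a median of 12.6 CPM, with log2 changes of -0.09 under miR-99b-5p, 1.12 under miR-380-3p, 0.63 under miR-485-3p and 1.13 under miR-100-3p. The semaphorin SEMA4D was at 0.28 to 0.38 under every mimic (0.31 ± 0.05; edgeR F test among the 4, adjusted p = 0.719). Among receptors, the neuropilin NRP2 was higher (0.46 ± 0.05), as were the SLIT receptor ROBO1 (0.38 ± 0.06) and the netrin receptor UNC5C (0.36 ± 0.05). The semaphorin receptor PLXNA2 was lower under every mimic, at -0.57 under miR-99b-5p, -0.52 under miR-380-3p, -0.44 under miR-485-3p and -0.27 under miR-100-3p (edgeR F test among the 4, adjusted p = 0.0621). PLXNA2 had 96.6 to 149 CPM in the mimic libraries, against 125.2 to 200.7 CPM in the comparison libraries, and the ranges overlapped. With the scrambled control alone as the comparison, 2 members of this list were called higher and 2 lower, beside 158 and 251 over all genes.

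The cadherin and protocadherin list had 11 of 27 tested members called higher (40.7%) and 2 lower (7.4%), with a median log2 change of 0.17. The median was 0.47 under miR-380-3p, against 0.19 under miR-100-3p, 0.07 under miR-485-3p and 0.01 under miR-99b-5p. Without miR-380-3p the calls were 4 higher and 0 lower, beside 1267 and 1375 over all genes. CDH4, retinal cadherin, was at 0.73 under miR-485-3p and 0.55 under miR-380-3p (0.43 ± 0.06 pooled), and PCDH9 was at 1.40 under miR-99b-5p (0.55 ± 0.09 pooled). PCDH19 was called lower (-0.35 ± 0.07) through miR-380-3p, at -1.56 there. The calls were 6 and 1 without the comparison group miR-1915-3p, 6 and 2 without miR-1283, and 2 and 0 with the scrambled control alone as the comparison. Over all genes these fits called 698 and 708, 1004 and 1055, and 158 and 251.

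**Figure D4:**
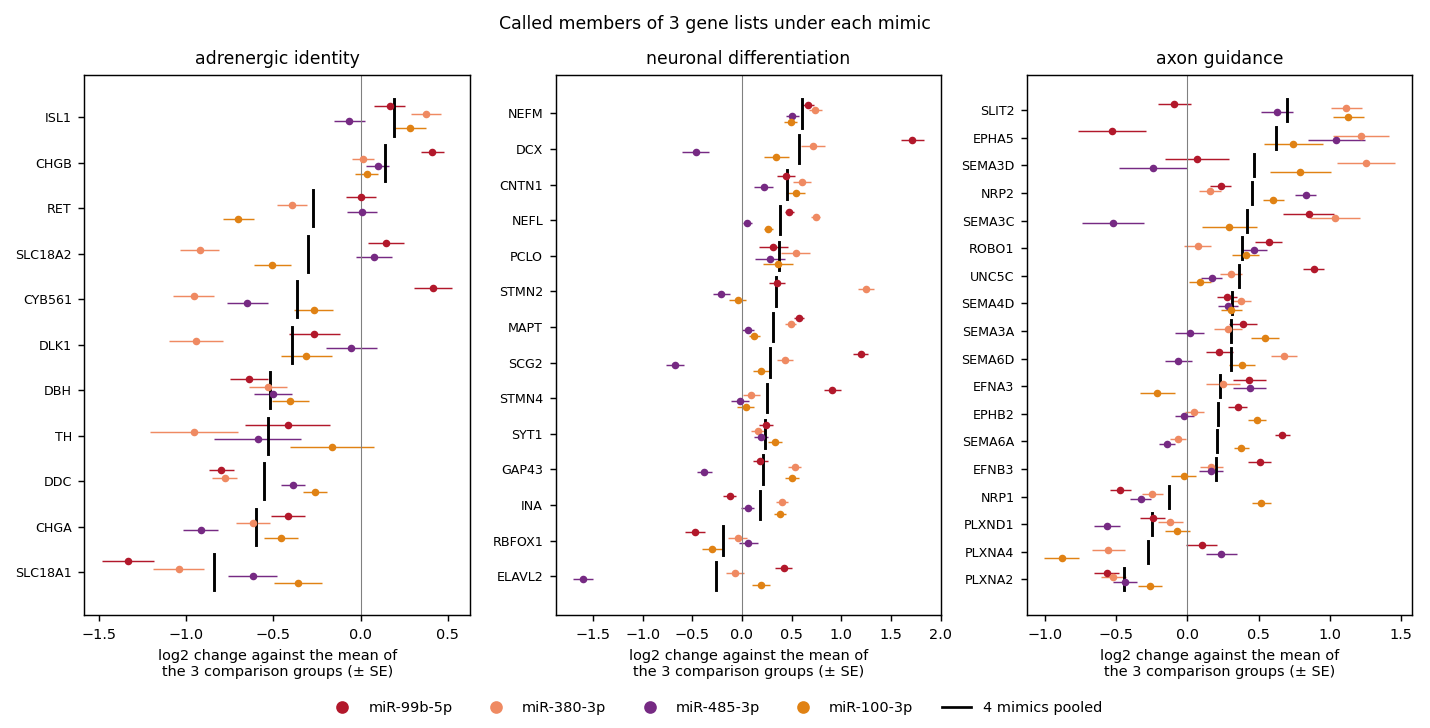
Log2 change against the mean of the 3 comparison groups (horizontal axes) for called members of the adrenergic identity, neuronal differentiation and axon guidance lists (vertical axes). Coloured points with SE are single mimics, which share the comparison libraries, and black bars are the pooled change; NEFM, DBH, DDC, CHGA, SEMA4D and PLXNA2 have all 4 points on 1 side of 0, while DCX, SCG2, CYB561 and EPHA5 have points on both sides.

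Organelle genes gave shorter lists of calls. In the respiratory chain list 8 of 51 members were called lower (15.7%) and 1 higher (2.0%). The largest of these changes was that of the complex I subunit NDUFB10 (-0.32 ± 0.07), which was at -0.97 under miR-485-3p, and the next that of the complex I subunit NDUFA12 (-0.25 ± 0.05), which was at -0.83 under miR-99b-5p. Without the comparison group miR-1915-3p 3 members of this list were called lower and 1 higher, beside 708 and 698 over all genes. With the scrambled control alone 0 were called, beside 251 lower and 158 higher over all genes. Of the 13 mitochondrially encoded mRNAs 0 were called, and of the 78 cytosolic ribosomal protein genes 0 were called, by edgeR, DESeq2 and limma-voom alike. At an unadjusted edgeR p under 0.05 there were 1 and 7, beside 4515 of all 15058 genes tested. The median log2 changes of the 2 lists were 0.12 and 0.00. With 1 library left out the ribosomal protein list had 0 or 1 member called, beside 2338 to 3024 over all genes. It had 1 after omission of replicate 1 of miR-380-3p, replicate 1 or 4 of miR-100-3p, replicate 4 of miR-1915-3p or replicate 3 of miR-1283.

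In the lysosome and proton pump list 5 of 37 members were called higher (13.5%) and 4 lower (10.8%), near the 9.3% and 8.69% of all genes. With the scrambled control alone 2 were called higher and 2 lower, beside 158 and 251 over all genes. The 4 lower members were subunits of the proton pump or its accessory protein. ATP6AP1 was at -1.94 under miR-99b-5p and at -0.56 ± 0.06 in the pool, and ATP6V1A was at -1.10 under miR-380-3p and at -0.47 ± 0.07 in the pool. ATP6V1C1 was at -0.68 under miR-99b-5p and -0.53 under miR-485-3p. The higher members included the acid lipase LIPA (0.27 ± 0.04), the cathepsins CTSA (0.23 ± 0.05) and CTSB (0.21 ± 0.05), the saposin precursor PSAP (0.20 ± 0.05) and the pump subunit ATP6V0E1 (0.22 ± 0.03). Without miR-99b-5p the pooled change of ATP6AP1 was -0.11 and it was no longer called.

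Among stress and survival genes, the unfolded protein and amino acid stress list had 5 of 28 members called lower (17.9%) and 2 higher (7.1%). Without miR-1915-3p these were 4 and 0, beside 708 and 698 over all genes, and with the scrambled control alone 1 and 0, beside 251 and 158. Among the lower members were CRELD2, a secretory stress protein, lower under every mimic (-0.30 ± 0.06), and HSPA5, the main chaperone of the endoplasmic reticulum, at -0.83 under miR-99b-5p and 0.18 under miR-100-3p. The p53 target list had 5 of 24 members lower (20.8%) and 1 higher (4.2%). All 6 differed among the mimics, as did 74.6% of all called genes. Its lower members numbered 10 with the GC slope as a term, where 2090 of all genes were called lower in place of 1308. They numbered 9 without miR-99b-5p, beside 1359 over all genes. With the scrambled control alone 0 members were called, beside 251 lower and 158 higher over all genes. ZMAT3, an RNA-binding p53 target, was at 0.58 under miR-99b-5p and -1.32 under miR-485-3p. In the BCL2 family 2 of 14 members were called higher and 2 lower (14.3% each), and each of the 4 had the same sign under every mimic. With the scrambled control alone 0 were called higher and 1 lower, beside 158 and 251 over all genes. Without miR-1283 these were 1 and 1, beside 1004 and 1055. BCL2, the founding survival protein, had 16.8 to 38.2 CPM in the mimic libraries, against 30.8 to 44.0 CPM, with log2 changes of -0.37 under miR-99b-5p, -0.99 under miR-380-3p, -0.22 under miR-485-3p and -0.79 under miR-100-3p (-0.59 ± 0.07 pooled). MCL1, a second survival protein, was at -0.14 ± 0.04 with no difference among the 4 called (edgeR adjusted p = 0.548), and the death activators BCL2L11, also known as BIM, and BMF were higher (0.35 ± 0.06 and 0.17 ± 0.06). The interferon response list had 4 of 20 tested members lower (20.0%) and 0 higher (0.0%), with 2 lower by DESeq2, without replicate 4 of miR-1283 or with the scrambled control alone, and 0 called without the comparison group miR-1915-3p. Over all genes, 1427 were called lower by DESeq2, 251 with the scrambled control alone and 708 without miR-1915-3p. Without replicate 4 of miR-1283, 2338 of all genes were called in either direction in place of 2708.

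Of the remaining lists the counts are given to be set beside the 9.3% higher and 8.69% lower over all genes. Counts of members called higher and lower were 4 and 5 of 49 RAB GTPases, 4 and 3 of 24 microRNA pathway genes, 3 and 4 of 17 mesenchymal genes, 3 and 5 of 44 ribosome biogenesis genes, 4 and 2 of 39 DNA replication genes and 0 and 4 of 32 mitosis genes. They were 3 and 2 of 29 hypoxia and glycolysis genes, 3 and 1 of 24 cholesterol synthesis genes, 1 and 0 of 15 fatty acid synthesis genes and 0 and 1 of 24 immediate early genes. Many of these counts moved with the libraries used. Over all genes, the counts called higher and lower were 1485 and 1356 without miR-485-3p, 1758 and 1586 without miR-100-3p and 1379 and 1359 without miR-99b-5p. The mitosis counts were 3 and 4 without replicate 2 of miR-485-3p, where 3024 of all genes were called in either direction in place of 2708. They were 0 and 2 without replicate 2 of miR-1915-3p. Omission of any 1 library gave 2338 to 3024 calls over all genes. Cholesterol synthesis had 3 and 7 without miR-485-3p and 2 and 0 without miR-100-3p, and DNA replication had 11 and 2 without miR-100-3p and 1 and 2 without miR-485-3p. RAB GTPases had 5 and 9 without miR-99b-5p and 8 and 8 without miR-485-3p, the microRNA pathway had 1 and 1 without miR-99b-5p, and immediate early genes had 1 or 2 members called with any library left out. FOSL2, the immediate early gene called with all libraries, had 27.2 to 45.1 CPM in the mimic libraries, against 40.3 to 53.7 CPM, and was lower under 3 mimics (-0.59 under miR-99b-5p, -0.44 under miR-380-3p, -0.40 under miR-485-3p) and less so under miR-100-3p (-0.08).

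Several of the most changed genes of the pool rested on a few mimics. EPAS1, the hypoxia-inducible factor HIF-2 alpha, had a pooled log2 change of -0.54 ± 0.06, of which miR-99b-5p gave 94%, and without that mimic the pooled change was -0.04 and it was no longer called. TYMS, the thymidylate synthase that supplies DNA precursors, was lower under miR-100-3p (82.1 ± 11.0 CPM) and miR-485-3p (128 ± 5.36 CPM), against 241 ± 18.4 CPM in the scrambled control (SD, n = 4 each), and it was at 0.05 and 0.01 under miR-99b-5p and miR-380-3p. RHBG, an ammonium transporter, was lower under miR-99b-5p, miR-380-3p and miR-100-3p by -1.44, -1.35 and -1.07 and at 0.29 under miR-485-3p. S1PR1, a receptor for sphingosine 1-phosphate, was at 1.79 under miR-100-3p, 1.21 under miR-380-3p and 0.83 under miR-485-3p, and at 0.00 under miR-99b-5p. The homeobox gene SHOX2 and the peptide gene SST, somatostatin, were higher under every mimic but miR-485-3p, with -0.15 and -0.02 there.

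HBEGF, an EGF receptor ligand, and TTC9 were higher under every mimic among the 8 largest pooled rises. HBEGF had 3.56 to 8.29 CPM in the mimic libraries, against 2.53 to 4.54 CPM, with log2 changes of 0.52 to 1.01 under the single mimics (edgeR F test among the 4, adjusted p = 0.0649). TTC9 had 3.72 to 7.98 CPM, against 3.32 to 4.63 CPM, with log2 changes of 0.25 to 0.98 (edgeR F test among the 4, adjusted p = 0.000287). Both genes overlapped between the pools.

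For some genes that rest on 1 or 2 mimics the UTR held the heptamer of the mimic concerned. MYCBP, a small MYC-binding protein, had 6.57 ± 1.56 CPM under miR-485-3p and 13.2 ± 1.74 CPM under miR-99b-5p, against 29.2 ± 2.64 CPM in the scrambled control (SD, n = 4 each), and was at 0.08 and 0.05 under miR-380-3p and miR-100-3p. TRIM71, a ubiquitin ligase of stem cells, was at -2.01 under miR-99b-5p, and RAB21, an endosomal GTPase, was at -1.71 under miR-380-3p. Their heptamers on GRCh38, in capitals on the transcript strand, are shown to set beside those of TMEM30A.
MYCBP, miR-485-3p heptamer at chr1:38864626-38864632: caatgaaaaatggtttTGTATGAc
MYCBP, miR-99b-5p heptamer at chr1:38864219-38864225: acacaagatgcttttgTACGGGTt
TRIM71, miR-99b-5p heptamer at chr3:32896652-32896658: tttttaaaactgatctTACGGGTt
RAB21, miR-380-3p heptamer at chr12:71786549-71786555: gtaaaatacattgtaaATTACATa
RAB21, miR-380-3p heptamer at chr12:71787168-71787174: ttctgtggatggaaacATTACATg
Each of these heptamers belongs to a mimic under which its gene was low, but a match does not show a site in use. The UTR of TRIM71 also held a heptamer of miR-485-3p, under which the gene was at -0.03. The UTR of RAB21 also held 2 heptamers of miR-485-3p and 1 of miR-100-3p, under which the gene was at -0.18 and 0.17. Heptamers of the comparison mimic miR-1283 were present too, with 4 in RAB21 and 1 each in TRIM71 and MYCBP. The UTRs of RAB21, TRIM71 and MYCBP are 14612, 6015 and 1706 bases long. The UTR of EPAS1 held no heptamer of miR-99b-5p.

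Over all 12664 tested genes with a UTR, 9.14% were called lower in the pool. The share was 7.34% of 8398 genes with no heptamer of the 4 mimics, 11.13% of 3119 genes with heptamers of 1 mimic, 16.51% of 975 with 2 and 20.36% of 167 with 3, while none of the 5 genes with all 4 was called. UTR length rose along with this count, with medians of 1221, 2631, 4199 and 6242 bases. Among UTRs no longer than the median of all, the shares were 7.59% of 5417 genes, 14.44% of 838 and 21.33% of 75. Median length still rose across these sets (742, 1110 and 1203 bases), and median UTR GC content fell (48.43%, 41.12% and 36.96%). By mimic, the share called lower was 23.56% of 191 genes with the heptamer of miR-99b-5p, 15.82% of 1934 for miR-485-3p, 12.46% of 1982 for miR-380-3p and 11.67% of 1483 for miR-100-3p. It was 8.98% of 3251 genes for miR-1915-3p and 9.49% of 2666 for miR-1283.

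The median log2 change of genes with a heptamer was negative under the matching mimic, at -0.19 for miR-99b-5p, -0.04 for miR-380-3p, -0.11 for miR-485-3p and -0.03 for miR-100-3p. Under the 3 other mimics the same genes had medians of 0.00 to 0.06, and all 12664 genes with a UTR had medians of -0.0012 to 0.047. Genes with the heptamer of miR-1283 had medians of 0.02 to 0.05 under the 4 mimics, and those with the heptamer of miR-1915-3p had medians of -0.02 to 0.07. The pooled value averages the matching mimic with 3 that do not match.

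**Figure D5:**
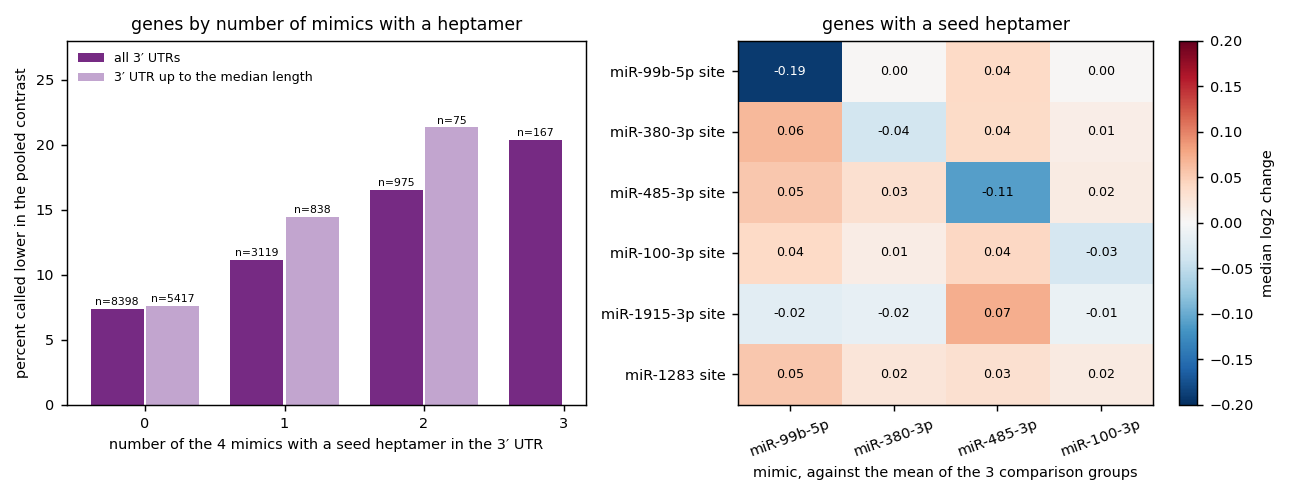
Left, percent of genes called lower in the pooled contrast (vertical axis, from 0) by the number of the 4 mimics with a seed heptamer in the 3′ UTR (horizontal axis), for all UTRs (dark bars) and for UTRs no longer than the median (pale bars), with the number of genes above each bar. Right, median log2 change under each mimic (columns) of genes with the heptamer of each microRNA (rows); in the rows of the 4 pooled mimics the negative medians lie on the matching cells, with -0.19 for miR-99b-5p and -0.11 for miR-485-3p.

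The called genes for which no difference among the 4 mimics was called had other medians of level and transcript features than all genes tested. The median of the mean log2 CPM was 5.108 for the higher and 3.66 for the lower genes of this kind, against 4.441 over all genes. It was 5.024 and 4.806 for all called higher and lower genes. Errors are widest at low level, so a missing call means less there. The 438 higher genes of this kind had a median GC content of 45.39% and the 249 lower genes 55.14%, against 48.33% over all genes tested. Their median 3′ UTR lengths were 2007.5 bases and 1228 bases, against 1677.5 bases over all genes with a UTR. Over all called genes the GC medians were 46.85% for the higher and 49.02% for the lower genes. The GC slope of the libraries ran from -0.216 to 0.304 in the mimic libraries, against -0.117 to 0.194 in the comparison libraries. With that slope as a term in the fit, the GC medians of genes with no called difference among the 4 were 48.95% for 454 higher genes and 52.91% for 302 lower genes, an analysis chosen after seeing the data. Over all genes called in that fit the order was reversed, with GC medians of 48.49% for 2067 higher genes and 46.58% for 2090 lower genes. The part that GC content has in the calls was not tested.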

How the data were processed

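Kelly cells were transfected in 7 groups of 4 libraries, and messenger RNA was sequenced. The authors deposited a table of 30887 genes with expected counts for 28 libraries, of which 10.2% are not whole, and a gene length column that was not used; 951 genes have no count and 0 columns lack a sample. Reads were aligned with STAR to hg19, per the submitters' processing notes; the STAR version and the counting tool are not given in the sources used here.

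The expected counts as deposited were rounded to whole numbers. The main test was edgeR 4.0.16 (R 4.3.3): TMM scaling, filterByExpr on group (15058 genes kept), quasi-likelihood fit on group with 21 residual degrees of freedom, and a contrast of the mean of 4 mimics minus the mean of 3 comparison groups. Differences among the 4 mimics were an F test on 3 degrees of freedom in the same fit. P values were Benjamini-Hochberg adjusted over all genes and called under 0.05. Group means were tested with limma 3.58.1 (empirical Bayes with a mean trend). TMM factors ran from 0.948 to 1.03, and the median library total was 15 M counts, so genes of low level carry the widest errors. The scripts were tested on simulated data. Alternatives were DESeq2 1.42.0, limma-voom, other scalings and filters, a replicate block, library code or GC slope as a term, and leaving out groups or libraries.

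Named genes had to be called and to reach 2 in mean log2 CPM. They were the 8 largest rises and 8 largest falls, up to 10 of each with fully separated libraries, up to 3 per list, up to 4 each way by group means, and MYCN. The members, the 22 gene lists and the rule were chosen with earlier results of these data known. Expression values used hg19; loci and 3′ UTRs (the longest per gene, at least 50 bases) came from GENCODE 29 on GRCh38, matched by gene ID for 12664 genes (84.1%), and GC content for 14863 (98.7%). Promoter sequences matched 10963 tested genes (72.8%, under the 80% needed), so the promoter check was void. SEPT3 is now SEPTIN3. A few called genes are not reported here, in the text or in the plots, though list counts include them.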

Additional observations from a re-analysis of the deposited data

Results flagged for a closer look

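In 6 of 149 sets of 4 values, 1 value stood far from the other 3; chance alone gives about 1 in 20. The sets were the libraries of each group for 16 genes and 3 library measures, and the changes of the same genes under the 4 mimics. The values that stood apart were TMEM30A at 21.36 CPM in miR-99b-5p replicate 3, CH17-164J11.1 at 31.24 CPM in miR-1915-3p replicate 1, DDC at 278.7 CPM in miR-99b-5p replicate 7, ISG20L2 at 85.94 CPM in miR-380-3p replicate 1, and STK24 at 92.54 CPM in scrambled control replicate 5 and 99.07 CPM in miR-1915-3p replicate 1.

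The 4 mimics differed by the edgeR F test in 8 of the 16 genes with library values. The adjusted p values were 1.93e-06 for TMEM30A, 6.57e-09 for CH17-164J11.1, 3.85e-06 for DDC and 0.00255 for CHGA, all lower under every mimic. They were 1.68e-05 for PTGFRN, 0.0269 for NEFM and 0.00145 for TBC1D30, all higher under every mimic. MYCN, with an adjusted p of 6.83e-09, was lower under miR-99b-5p and higher under miR-100-3p. Of the other 60 named genes, 57 differed among the 4 mimics by the same edgeR test, beside 74.6% of all genes called in the pooled contrast.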

How the results depend on the processing

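The pooled contrast called 2708 genes and the test among the 4 mimics 7842. DESeq2, limma-voom, 3 other scalings, 2 other filters and the library code as a term gave 1999 to 2812 and 6564 to 8057. The count of the pooled contrast became 4157 with the GC slope as a term, 1406 without miR-1915-3p and 409 with the scrambled control alone; leaving out any other mimic or comparison group, or both libraries with a title suffix, gave 1967 to 3344. The fit with the scrambled control alone uses 4 comparison libraries in place of 12, and the cause was otherwise not tested. Of the 4157, 1406 and 409 genes, 2707, 1382 and 397 were shared with the 2708. With a replicate block the counts were 2872 and 8474; the replicate numbers were not taken as pairing the libraries (27 of 67 same-number pairs and 60 of 269 different-number pairs had a correlation over 0.1, with medians of 0.0533 and -0.00885, and 8 of 28 libraries correlated best with their own number). With 1 library left out the counts ran from 2338 to 3024 and from 7178 to 8062, and group means gave 0 to 0 calls (625 to 977 genes at an unadjusted p under 0.05). Over the same omissions, chosen for these measures after seeing the data, the difference between the pools ran from -1.218 to 0.04857 M in total counts, from 0.3902 to 0.8055 percentage points in mitochondrial share and from -0.05347 to -0.01027 in GC slope. Named genes kept their call and direction in 1359 of 1443 values under other alternatives and in 2112 of 2128 with 1 library left out, where the other 16 lost the call, those of CDC25B and STARD4 among them. With the scrambled control alone, 43 of the 75 called named genes stayed called. Of 418 list counts, 75 moved by over 1.5 times, 19 of them with the scrambled control alone. The pooled log2 change turned to 0.0136 for TRIM71 without miR-99b-5p, 0.0416 for PCDH19 without miR-380-3p, and 0.0201 for HK1 and 0.0281 for ZMAT3 without miR-485-3p, each the mimic that gave most of the change.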
